A study of Drosophila melanogaster with 2 samples.

Results

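The Cpr genes of Drosophila melanogaster encode cuticular proteins, and the data are chromatin immunoprecipitation (ChIP-seq) peaks obtained with a tagged form of the transcription factor Drgx. Members were the protein-coding genes of the dm6 assembly whose symbol is Cpr followed by a cytological number and letters, such as Cpr64Aa. The gene called Cpr alone, which encodes an unrelated reductase, was left out. This rule found 70 members among 13945 protein-coding genes. It used no measured value, although the family was chosen with earlier results of these data known.

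Embryos 1 day of age were taken whole from the fly strain Drgx-GFP, which carries a transgene for Drgx fused to enhanced green fluorescent protein. Chromatin was sonicated to fragments of 200 to 800 bp and precipitated with an antibody against the fluorescent protein. The 2 libraries are biological replicates of 1 group, per the labels, and every embryo carried the transgene. The promoter that drives the transgene and any remaining untagged Drgx are not described in the labels, the labels' possible control experiment was not used here, and peak lists hold no transcript levels against which the tissue could be checked. The thresholded list from both replicates, called pooled here, held 8443 peaks, the conservative list of the same kind 7909, replicate 1 alone 6349 and replicate 2 alone 5475. The ranked lists, which also hold peaks that missed the threshold, had 77876 to 96649 peaks on the 6 chromosomes used.

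Many insect structural cuticle proteins carry the Rebers-Riddiford consensus, a sequence that binds chitin, and the Cpr family is defined by it. The epidermis of the late embryo secretes chitin and these proteins as the larval cuticle, and the genes are often found in tandem clusters that arose by duplication. Drgx is a homeodomain protein of the paired-like class, whose members bind sites with the core TAAT. In the mouse, the gene of the same name is known from sensory neurons of the dorsal root ganglia and the dorsal spinal cord.

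Sequence is shown for 6 pooled peaks, each as the summit base with 50 bases on either side, plus strand, dm6. Capitals mark TAAT on either strand, which reads ATTA when it lies on the other strand. The first 3 peaks lie beside 3 of the 4 members that had a summit within 1000 bp in every thresholded list, and they differ from each other in this core. The window near Cpr62Ba is chr3L:1829687-1829787, that near Cpr64Aa is chr3L:4209889-4209989 and that near Cpr72Eb is chr3L:16364323-16364423. The next 3 had a summit in the pooled list with weaker support from the replicates. They lie at chr3L:4213624-4213724, chr3L:16956915-16957015 and chr3L:19520988-19521088, near Cpr64Ac, Cpr73D and Cpr76Bc.
Cpr62Ba: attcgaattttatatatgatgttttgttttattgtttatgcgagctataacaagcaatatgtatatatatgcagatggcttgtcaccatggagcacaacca
Cpr64Aa: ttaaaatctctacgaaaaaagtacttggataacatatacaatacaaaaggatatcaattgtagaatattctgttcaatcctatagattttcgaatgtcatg
Cpr72Eb: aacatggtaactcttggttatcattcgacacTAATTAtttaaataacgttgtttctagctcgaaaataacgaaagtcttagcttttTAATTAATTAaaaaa
Cpr64Ac: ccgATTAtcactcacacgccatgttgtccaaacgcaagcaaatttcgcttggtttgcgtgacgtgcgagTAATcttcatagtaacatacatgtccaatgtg
Cpr73D: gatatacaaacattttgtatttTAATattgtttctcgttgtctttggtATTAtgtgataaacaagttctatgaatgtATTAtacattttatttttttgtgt
Cpr76Bc: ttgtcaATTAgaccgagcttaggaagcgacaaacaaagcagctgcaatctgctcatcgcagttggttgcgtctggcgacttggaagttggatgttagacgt

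The window near Cpr72Eb held 6 matches to TAAT and 3 to TAATTA, its palindromic form. No other window printed held TAATTA, and the windows near Cpr62Ba and Cpr64Aa held neither word. The fourth member with a summit in every list, Cpr49Ah, had 3 matches to TAAT in its window, which is not printed. Over all 12 pooled summits within 1000 bp of a Cpr gene 9 windows held TAAT, so those near Cpr62Ba and Cpr64Aa are 2 of the 3 that did not.

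A summit in the pooled list was found no more than 1000 bp from a transcription start site (TSS) for 11 of the 70 Cpr genes (15.7%), beside 25.2% of all protein-coding genes. Within 5000 bp the count was 32 members (45.7%), beside 48.8%. The conservative list gave 11 and 31 members, beside 24.1% and 47.4% of all genes. Replicate 1 gave 10 and 29, beside 20.4% and 41.8%, and replicate 2 gave 4 and 20, beside 18.1% and 38.2%. At 1000 bp the share of these 70 members was therefore below that of all genes in each of the 4 lists. At 5000 bp it lay near it in all but replicate 2, where 28.6% of members had a summit. With 1 group there is no condition to compare, and these shares are descriptions with no test. In whole embryos, binding in few cells and weak binding in many cannot be told apart.

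Cpr genes are shorter than most, and they differed in this from the genes they are set beside. Their median length was 1093.5 bp (range 457 to 18590), against 2166 bp for all protein-coding genes, and 63 of the 70 had a single annotated TSS. Among the 6191 single-TSS genes of up to 2188 bp, which is 2 times the members' median, 13.4% had a pooled summit within 1000 bp and 40.5% within 5000 bp. All 70 members together lay slightly above these shares, but they were not limited to genes that meet this rule. Cpr50Ca, Cpr62Ba, Cpr73D, Cpr76Bc and Cpr76Bd, of 5547 to 18590 bp, had a pooled summit within 1000 bp and did not meet it. The share among members that meet the rule is not given here.

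Few summits lay at the TSS itself. Only Cpr76Bc, at 93 bp, and Cpr50Ca, at 328 bp, had their nearest pooled summit within 500 bp of a TSS. This is 2.86% of members, beside 20.9% of all genes and 10.3% of the short genes. A further 9 members (12.9%) had their nearest pooled summit more than 500 and up to 1000 bp away. The share there was 4.34% of all genes and 3.12% of the short ones. Cpr76Bc and Cpr50Ca, and Cpr62Ba, Cpr73D and Cpr76Bd among the 9, are longer than the 2188 bp limit of the short genes. These bands of distance were chosen after the data were seen. The conservative list put 4 members within 500 bp (20.1% of all genes) and 7 in the next band (3.99%). Replicate 1 put 2 (16.9%) and 8 (3.58%), and replicate 2 put 0 (14.8%) and 4 (3.33%). Of the 9 members in the band, 6 had the summit upstream of the TSS and 3 downstream. The members on either side of the limit of 1000 bp were Cpr47Ec at 921 bp and Cpr97Ea at 1087 bp. Over all distances the median was 5599 bp for members, 5270 bp for all genes and 7130 bp for the short genes.

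**Figure D1:**
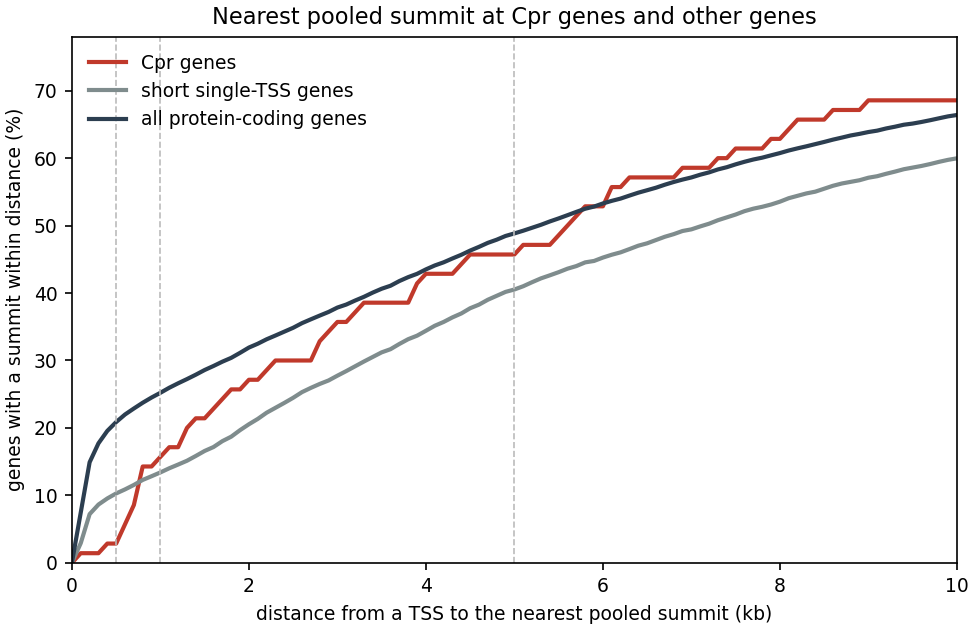
The share of genes (%, vertical axis) with a pooled summit within a given distance (kb, horizontal axis) of a TSS, for the 70 Cpr genes (red), 6191 short single-TSS genes (light grey) and 13945 protein-coding genes (dark). Dashed lines mark 0.5, 1 and 5 kb. The red line stays near the bottom up to 0.5 kb, at 2.86%. It reaches 15.7% at 1 kb, above the short genes, and meets the line of all genes near 6 kb. The red line holds all Cpr genes, including long ones and ones with 2 TSSs.

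Summits within 1000 bp were found in all 4 thresholded lists for 4 members, which are also the only members with a replicate 2 summit at that distance. Cpr62Ba (FBgn0035279, chr3L:1824129-1831783, minus strand) has 2 annotated TSSs, and its pooled peak at chr3L:1829639-1829793 lay in its own intron, 795 bp upstream of the inner TSS. The pooled signal of this peak was 248.9, rank 1494 in its list. Replicate 1 listed it at signal 128.1 and replicate 2 at 113.4, with summits 805 and 761 bp upstream. It was the highest peak within 1000 bp of any Cpr gene.

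Cpr64Aa (FBgn0035510, chr3L:4207838-4209178, minus strand) had its summit 761 bp upstream, in an intron of CG43367, the gene that encloses the 64A cluster. Its pooled signal was 192.3, with 105.0 in replicate 1 and 94.04 in replicate 2, and the same peak lay within 5000 bp of Cpr64Ab and Cpr64Ac. Cpr72Eb (FBgn0036618, chr3L:16364899-16365707, plus strand) had its summit 526 bp upstream, between Cpr72Ea and Cpr72Eb. Pooled signal there was 150.2, with 82.43 in replicate 1 and 68.97 in replicate 2. Cpr49Ah (FBgn0033731, chr2R:12413962-12415170, plus strand) had an intergenic summit 627 bp upstream with a pooled signal of 141.2, replicate 1 at 89.03 and replicate 2 at 38.51. All 4 summits were upstream, between 526 and 795 bp from the TSS, and each member was the coding gene nearest to its peak.

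At 4 more members the pooled peak overlapped a thresholded peak of replicate 1 but none of replicate 2. Cpr73D had a summit of signal 117.3 located 724 bp downstream of its outer TSS, and 78.11 in replicate 1. That summit lay closer, at 474 bp, to the TSS of Ogdh, which encodes a subunit of the mitochondrial oxoglutarate dehydrogenase. Cpr64Ac had a summit 759 bp upstream with signal 115.2 (69.35 in replicate 1), and all 4 genes of the 64A cluster have a TSS within 5000 bp of it. Cpr50Ca had a promoter summit 328 bp upstream, with signal 104.1 and 62.48 in replicate 1. Near Cpr65Ay 2 overlapping pooled peaks of signal 100.2 and 20.96 lay 888 and 683 bp downstream, and both overlapped 1 replicate 1 peak of signal 81.26. The gene nearest to both was CG13297, at 365 and 570 bp.

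In the ranked list of replicate 2 all 4 of these members still had a summit within 1000 bp, with signals of 50.04 at Cpr73D, 36.79 at Cpr50Ca, 33.11 at Cpr64Ac and 18.89 at Cpr65Ay. The median signal of all peaks in that list was 14.37. At Cpr73D, Cpr50Ca and Cpr64Ac this weaker summit lay within 50 bp of the pooled one, whereas at Cpr65Ay it lay on the other side of the TSS, 672 bp upstream.

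The remaining 3 members with a pooled summit within 1000 bp had no overlapping thresholded peak in either replicate. Cpr47Ec had a pooled signal of 114.0 at a summit 921 bp downstream, beyond the gene's 3' end. Its ranked signals were 63.51 in replicate 1 and 50.88 in replicate 2. Cpr76Bc had 101.003 at 93 bp downstream, with ranked signals of 53.54 and 36.29 in the replicates at 51 and 73 bp downstream. Cpr76Bd had 80.4 at 534 bp upstream, with 33.13 and 46.77. These peaks passed the threshold only in lists made from both replicates.

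Another 3 members had a summit within 1000 bp in some other thresholded list only. Cpr51A had one 27 bp upstream in the conservative list (signal 90.62) and 23 bp upstream in replicate 1 (53.3). Cpr92F had one 48 bp upstream in the conservative list (68.24), and Cpr47Ed had one 864 bp upstream in replicate 1 (58.65). Both promoter summits at Cpr51A and Cpr92F were in the pooled ranked list with the same signals as in the conservative list. Why they were absent from the pooled thresholded list was not tested. In all, 14 members had a summit within 1000 bp in at least 1 list. Of these, 6 had one in replicate 1 and not in replicate 2, and 0 the other way round. The same counts were not made over all genes, of which 20.4% had a summit within 1000 bp in replicate 1 and 18.1% in replicate 2.

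**Figure D2:**
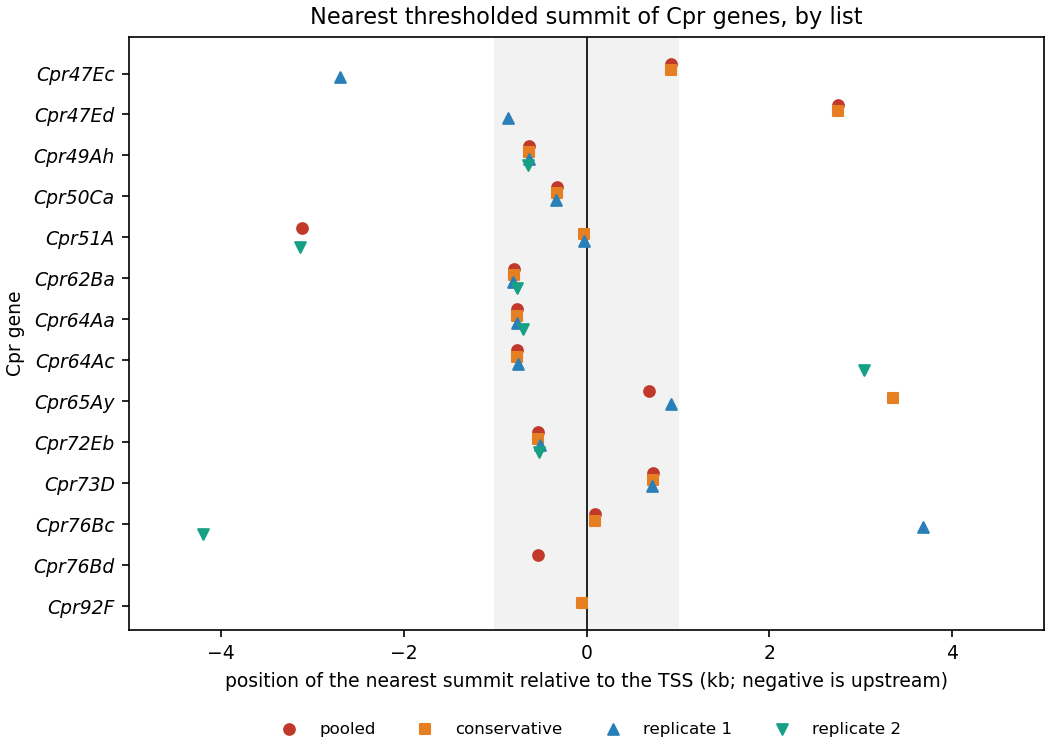
Position of the nearest thresholded summit (kb from the TSS, negative is upstream) for the 14 Cpr genes with a summit within 1 kb (shaded) in at least 1 list, with 1 marker for each list where it lies within 5 kb. For Cpr49Ah, Cpr62Ba, Cpr64Aa and Cpr72Eb the 4 markers coincide between 506 and 805 bp upstream. At Cpr47Ec, Cpr47Ed, Cpr51A, Cpr64Ac, Cpr65Ay and Cpr76Bc the lists place their nearest summit at different positions.

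The 12 pooled peaks within 1000 bp of a member had a median signal of 114.6, beside 120.1 for the whole pooled list. Both replicates listed 4 of them, replicate 1 alone 5 and neither replicate 3. Widening the window to 5000 bp gave 31 peaks with a median of 101.003, of which both replicates listed 11, replicate 1 alone 12, replicate 2 alone 2 and neither 6. Of the whole pooled list 51.1% were in both replicates, 20.4% in replicate 1 alone, 10.3% in replicate 2 alone and 18.2% in neither. By annotation 14 of the 31 peaks were intergenic, 8 intronic, 8 in a promoter of any gene and 1 exonic. Promoters held 36.8% of the whole list.

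The 2 strongest peaks within 5000 bp of a Cpr TSS lay at neighbouring genes. The peak of signal 1087, rank 82 of the pooled list, lay 3999 bp downstream of the TSS of Cpr78Cc and 79 bp from that of CG11309. It was listed at 688.3 in replicate 1 and 400.0 in replicate 2. The peak of signal 614.6 lay 3219 bp downstream of the TSS of Cpr31A, in an intron of Pen, which encodes an importin alpha, with 306.7 and 308.9 in the replicates. Near Cpr65Ec a peak of 187.2 lay 3487 bp downstream in an intron of form3, a formin that promotes actin assembly, with 122.3 and 68.73. At each of these 3 peaks another gene's TSS was closer than that of the member.

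Other peaks beyond 1000 bp included 2 above the list's median signal of 120.1 with a Cpr gene as the nearest coding gene, at Cpr62Bc and Cpr51A. Cpr62Bc had an intergenic peak of 288.7 located 2722 bp upstream, with 159.7 in replicate 1 and 125.1 in replicate 2. Cpr51A had one of 171.1 located 3115 bp upstream, with 105.2 and 58.04, and its window held 1 TAATTA. The rest were below that median. Cpr65Eb had one of 113.8 located 2185 bp upstream, listed in replicate 1 (72.03) and not in replicate 2. Cpr76Ba had one of 96.29 located 1586 bp downstream, with 63.95 in replicate 2 and none in replicate 1. Cpr66Cb had 4 pooled peaks within 5000 bp, of signal 91.24, 89.1, 84.15 and 74.38, and replicate 2 listed none of them. The last pair lay in promoters, 11 bp from the TSS of Pex2, a gene of peroxisome assembly, and 107 bp from that of CG7083. The Cpr97E pair shared 2 of its 3 peaks, and the strongest, of 114.7, lay 1270 bp upstream of Cpr97Eb and 743 bp from CG14258. Both replicates listed this peak, at 64.41 and 53.98.

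Assigning a peak only to its nearest coding gene left 17 members with a summit within 5000 bp, of the 32 counted above, beside 25.1% of all genes. Over the 31 peaks, 20 had a Cpr gene as the nearest coding gene and 13 lay within 5000 bp of more than 1 member. The counts at 5000 bp are thus not independent from member to member.

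Chaining members whose genes lie at most 20 kb apart gave 33 loci, made of 10 clusters with 45 genes, 2 pairs and 21 lone genes. There are 35 members on 3L and 21 on 2R, with 5 each on 2L and 3R and 4 on X. On 3L 23 of 35 members had a pooled summit within 5000 bp (65.7%, beside 50.5% of all genes there), and on 2R 6 of 21 (28.6%, beside 48.0%). Cpr31A had one on 2L, Cpr97Ea and Cpr97Eb had one on 3R, and no member on X did. With 4 or 5 members each, 2L, 3R and X hold too few to set beside all genes there, and those shares are not given. At 5000 bp 25 of 45 clustered members (55.6%) had a pooled summit, drawn from 20 distinct summits, against 7 of 25 in pairs or alone (28.0%), beside 48.8% of all genes. The same order held in replicate 1, with 48.9% and 28.0% beside 41.8%, and in replicate 2, with 16 of 45 (35.6%) and 4 of 25 beside 38.2%, so that clustered members lay above all genes in the former and below them in the latter. Within 1000 bp the pooled counts were 9 of 45 and 2 of 25, beside 25.2% of all genes. The conservative list gave 7 of 45 (15.6%) and 4 of 25 there, beside 24.1%, and thus no such order. Clustered neighbours share summits, so these are counts of genes and not of separate binding events.

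Counted per length, the clusters with 5 kb on either side held 20 pooled summits in 269.5 kb, or 74.2 per Mb, beside 63.06 per Mb over the 6 chromosomes. Replicate 1 gave 66.8 beside 47.42 per Mb, while replicate 2 gave 40.8 beside 40.89. The conservative list gave 59.4 beside 59.08. The density in clusters was thus higher than over the chromosomes in the pooled list and replicate 1, and level in the other lists. These densities rest on few summits, 20 in the pooled list and 18 in replicate 1. The pooled ones include a weak summit of signal 20.96, and those of replicate 1 include 2.34, 4.66 and 10.8, beside a list median of 87.2. Weak summits were counted over the chromosomes as well, and the difference was not tested. The lone genes held 8 pooled summits, or 30.6 per Mb, and 16 of the 21 had none. Below the threshold the order was different, since ranked pooled summits lay at 1055 per Mb around lone genes, 831.3 around clusters and 721.9 over the chromosomes. The 2 pairs, at 63.2 per Mb from 4 pooled summits, are too few to place.

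**Figure D3:**
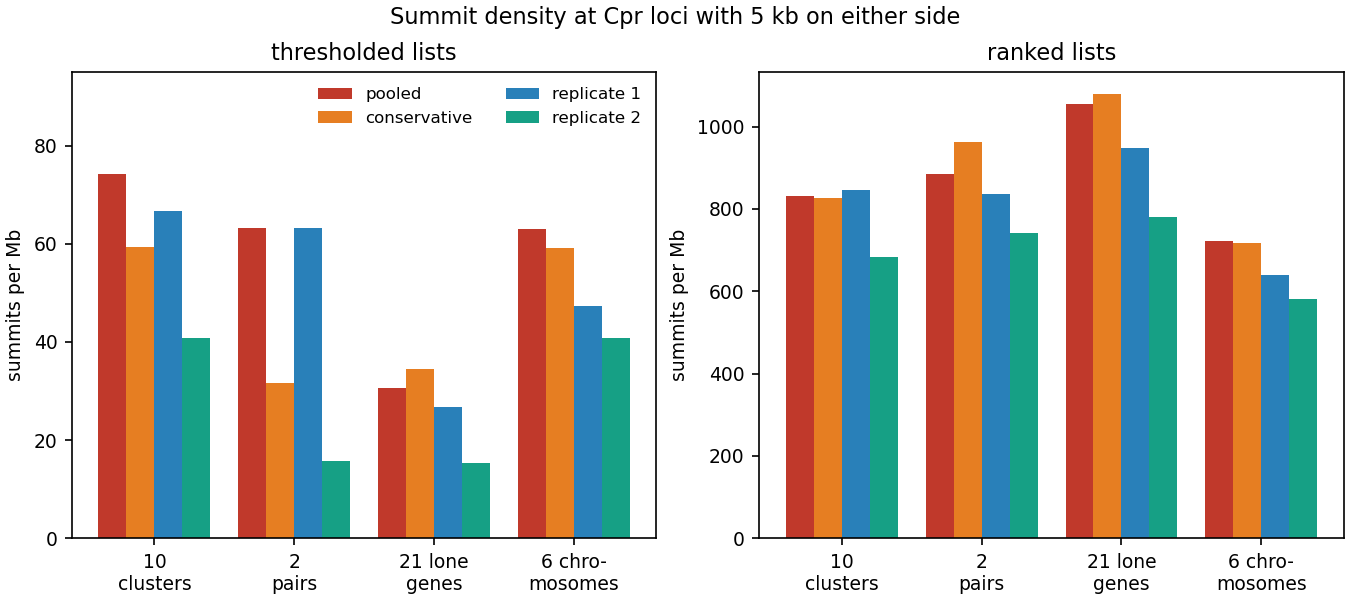
Summits per Mb at the 10 clusters, 2 pairs and 21 lone Cpr genes, each with 5 kb on either side, and over the 6 chromosomes, in the thresholded lists (left) and the ranked lists (right), with 1 bar for each list. In the thresholded lists lone genes have the fewest or close to the fewest summits, 30.6 per Mb in the pooled list, and in the ranked lists they have the most, 1055 per Mb.

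Each of the 10 clusters had a member with a pooled summit within 5000 bp, and 7 had one within 1000 bp. In replicate 2 these counts were 8 and 4. Joining members at most 10 kb apart instead gave 11 clusters, of which 10 and 7 had such a pooled summit. No count was made over other groups of neighbouring genes, so these numbers have no background beside them. Clusters 64A and 76B were covered in full at 5000 bp, with 4 of 4 members and 3 pooled summits each. Cluster 64A spans 8.58 kb inside CG43367, and its 3 summits (signals 192.3, 115.2 and 89.58) lay upstream of Cpr64Aa, upstream of Cpr64Ac and beyond Cpr64Ad. The last of these was in replicate 2 (47.36) and not in replicate 1. Cluster 76B spans 20.7 kb, and its 3 summits had signals from 80.4 to 101.003, of which replicate 2 listed 1 and replicate 1 none. Replicate 1 had a different summit there, 3679 bp downstream of the TSS of Cpr76Bc.

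Clusters 65E and 72E were also covered in full at 5000 bp, with 3 of 3 members from 2 pooled summits each, and cluster 62B had 2 of 3 members from 3 summits. In 62B the middle gene, Cpr62Bb, had its nearest pooled summit 5427 bp away. The long clusters were covered thinly. Cluster 49A spans 38.55 kb with 8 members and had 1 pooled summit, at its last gene, Cpr49Ah. Cluster 47E spans 26.7 kb with 7 members and had 1, between Cpr47Eb and Cpr47Ec and within 5000 bp of 3 members. Replicate 1 listed a different one, upstream of Cpr47Ed, and replicate 2 listed none in the cluster. Clusters 67F and 78C had 1 pooled summit each, both inside a neighbouring gene.

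Cluster 65A spans 30.35 kb and mixes 7 Cpr genes with Lcp65A genes, which encode larval cuticle proteins, and Acp65Aa, an adult cuticle gene. Its 3 pooled summits all lay near Cpr65Ay and CG13297 at 1 end of the cluster, and replicate 2 listed none of them. Cpr65Au, Cpr65Av and Cpr65Aw, at the other end, had their nearest pooled summit 12861 to 23165 bp away.

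**Figure D4:**
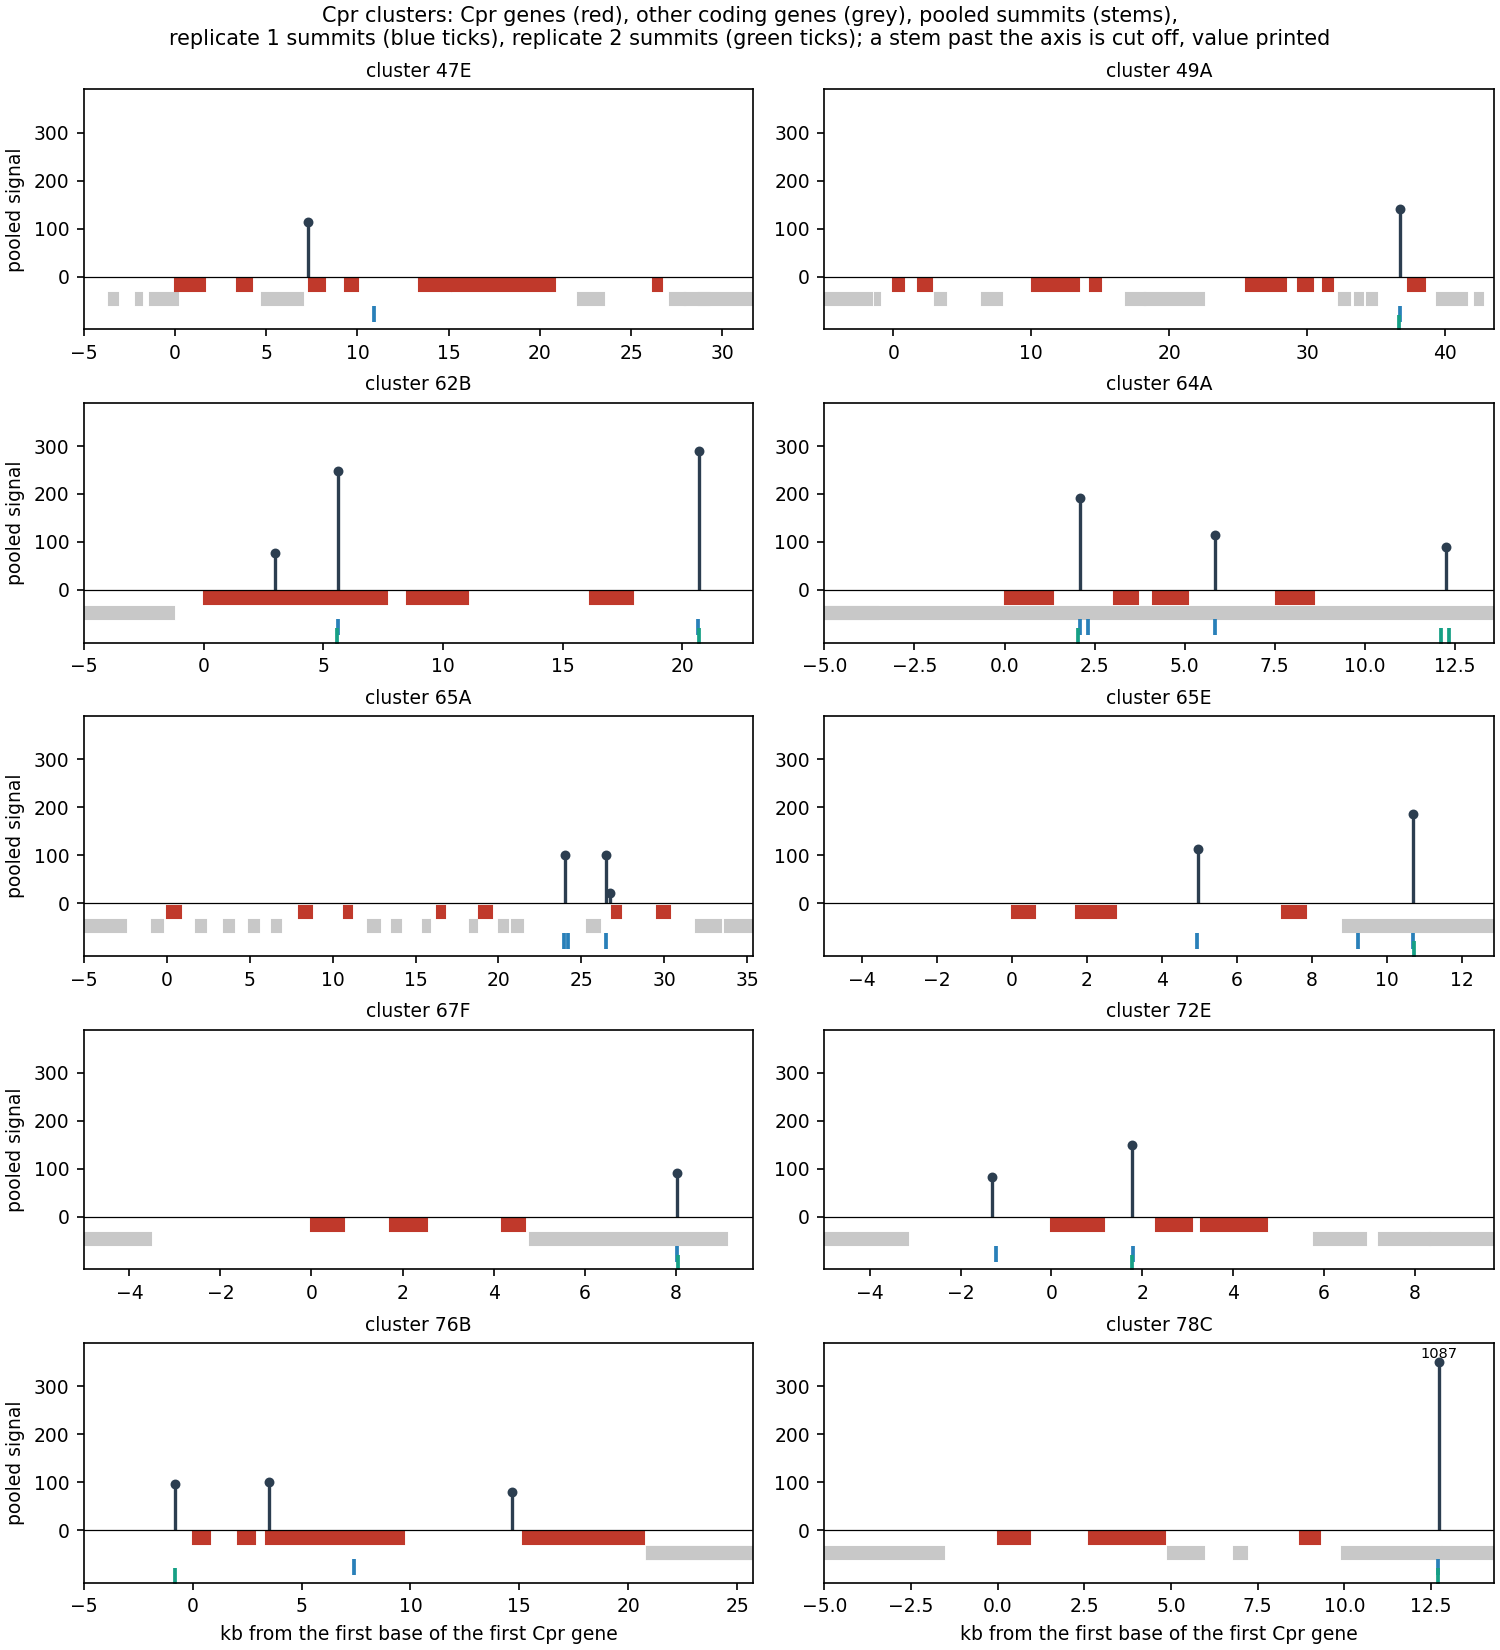
Maps of the 10 Cpr clusters, with kb from the first base of the first Cpr gene on the horizontal axis and pooled signal on the vertical axis. Red boxes are Cpr genes, grey boxes other coding genes, stems the pooled summits, and blue and green ticks the summits of replicates 1 and 2. The single summit of cluster 49A stands at its last gene, the summits of 65A stand at 1 end, and the peak of 1087 in 78C, whose stem is cut off in the drawing, lies outside the Cpr genes.

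The ranked lists, which include peaks below the threshold, gave a weak peak at most Cpr genes. In the pooled ranked list 55 of 70 members (78.6%) had a summit within 1000 bp, beside 76.5% of all protein-coding genes. The median signal of the strongest such summit was 41.4 for these 55 members, 52.1 for the genes of the whole genome that had one and 40.9 for the short genes. A signal above 100 was reached by 10 members (14.3%), beside 18.9% of all genes and 9.66% of the short ones. Above 200 there was 1 member, Cpr62Ba (1.43%), beside 8.60% of all genes and 3.97% of the short ones. Members, which were not limited to short single-TSS genes, passed the lower level in a share between both backgrounds and the upper level in a share below both.

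**Figure D5:**
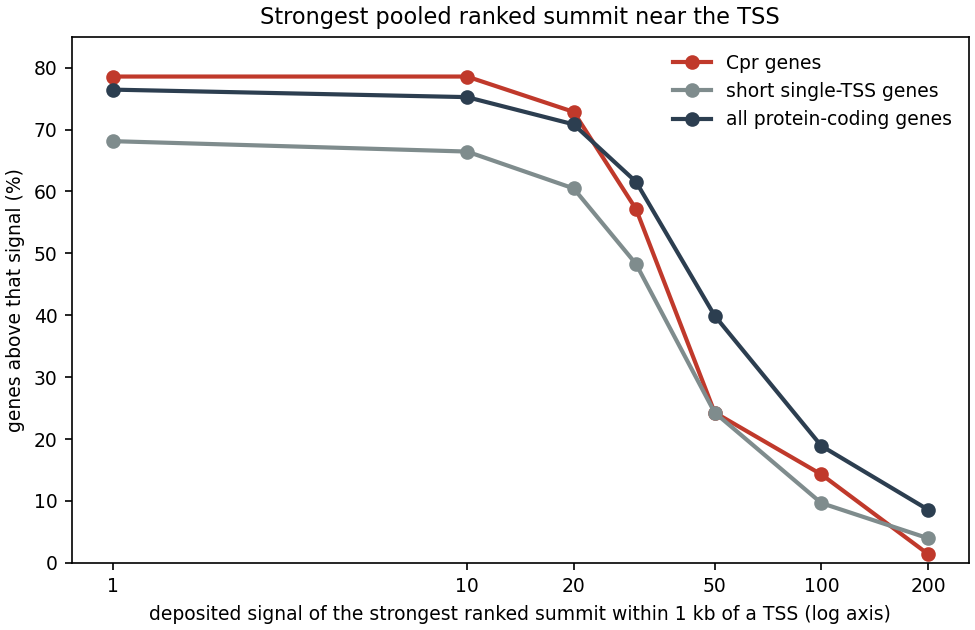
The share of genes (%, vertical axis) whose strongest summit within 1 kb in the pooled ranked list exceeds a given signal (log axis), for Cpr genes (red), short single-TSS genes (light grey) and all protein-coding genes (dark). The red line starts at 78.6%, falls to 24.3% above a signal of 50, level with the short genes, and to 1.43% above 200.

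Within the clusters this ranked signal was uneven. In 47E the strongest ranked summit within 1000 bp was 114.0 at Cpr47Ec and the weakest 24.1 at Cpr47Eb, while Cpr47Ea had none. In 49A the range was from 141.2 at Cpr49Ah to 15.37 at Cpr49Ag, and Cpr49Aa, Cpr49Ab, Cpr49Ac and Cpr49Ad had none. In 62B it was from 248.9 at Cpr62Ba to 29.59 at Cpr62Bb, and in 64A from 192.3 at Cpr64Aa to 38.18 at Cpr64Ab. The highest value in each of these clusters is that of a pooled thresholded peak already described, since the pooled ranked list holds those peaks too.

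In 65A the range was from 100.2 at Cpr65Ay to 17.86 at Cpr65Av, and 4 of the 7 members had none. Cpr65Ea reached 42.62 in 65E, where Cpr65Eb had the lowest value of 21.13. All members of 67F lacked a pooled ranked summit within 1000 bp, although replicate 1 listed weak ones of 13.39 at Cpr67Fa1, 31.38 at Cpr67Fa2 and 17.1 at Cpr67Fb. Cpr72Eb had 150.2 and Cpr72Ea 34.62 in 72E, with none at Cpr72Ec. In 76B the values ran from 101.003 at Cpr76Bc to 26.82 at Cpr76Bb, and in 78C from 40.66 at Cpr78Ca to 20.92 at Cpr78Cb.

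Tandem copies can be hard to align uniquely, so the share of 32-base words within 1000 bp of each TSS that recur elsewhere in the assembly was computed. The median over members was 0% and the mean 1.99%, beside a mean of 2.85% over all genes. Only Cpr65Ax1 (64.6%) and Cpr65Ax2 (63.8%), neighbouring copies in cluster 65A, exceeded 10%, and neither had a pooled ranked summit within 1000 bp. Whether reads were lost there was not tested. Cpr67Fa1 and Cpr67Fa2 shared 4.21% with other places, and the other members of 67F, 47E, 49A and 62B had 0%.

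Words were counted in the sequence at the summits near Cpr genes and set beside the whole list. TAATTA was in the window of the summit base and 50 bases on either side for 1 of 12 pooled summits within 1000 bp of a member (8.33%) and of 2 of 31 within 5000 bp (6.45%), beside 7.97% of all pooled summits. TAAT was in 75.0% and 74.2%, beside 66.6%. TAATTA contains TAAT on both strands, so these counts overlap. Over the 12 windows the mean GC content was 33.0%, beside 36.9% for all pooled summits. AACCGG, a word found in motifs of the epidermal factor Grainyhead, was in 1 of the 12 (8.33%), near Cpr65Ay, and in 2 of the 31 (6.45%), beside 1.55% of all pooled summits. GAGAGAG was in 0 of the 12 and 1 of the 31, beside 2.93%, and TGAGTCA in 0 of both, beside 0.888%. With so few windows, 1 match decides each of these shares.

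In the promoters themselves, taken as 250 bases before to 50 after the gene start, TAATTA was in 10 of 70 members (14.3%), beside 20.5% of all protein-coding genes. AACCGG was in 9 (12.9%), beside 7.06%. Member promoters had a mean GC content of 45.1%, beside 39.1%, and the part of base composition in these counts was not tested. A match in a window is a description of letters and not a binding site.

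Other genes of the cuticle gave different counts from list to list. One list held 55 cuticular protein genes with other symbols, such as the Lcp, Ccp84A, Twdl and Edg genes. They were set apart from the Cpr genes by symbol, and whether their proteins carry the Rebers-Riddiford consensus was not checked. Of the 55, 0 had a pooled summit within 1000 bp and 6 (10.9%) within 5000 bp, beside 25.2% and 48.8% of all genes. The 6 were Acp65Aa, Edg91, Lcp65Aa, Pcp, TwdlC and resilin, at 2445 to 4730 bp. In the conservative list and in each replicate the count within 1000 bp was also 0. Those genes had a median length of 908 bp, shorter than the Cpr genes, and 19 of 55 (34.5%) had a pooled ranked summit within 1000 bp, against 55 of 70 Cpr genes. Among them 14 exceeded 10% of repeated words, against 2 Cpr genes, and the part of repeated sequence in these counts was not tested.

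Of 26 genes for chitin synthesis and cuticle assembly, 12 (46.2%) had a pooled summit within 1000 bp, beside 25.2% of all genes. Replicate 1 gave 7 (26.9%, beside 20.4%) and replicate 2 gave 5 (19.2%, beside 18.1%), which is near the share of all genes. The highest were Cht7, a chitinase family gene, with 408.9 (263.5 and 151.0 in the replicates), sha, needed for epidermal hairs and denticles, with 282.8 (155.0 and 126.7), and mmy, which encodes the enzyme that makes the sugar donor for chitin, with 178.3 (87.44 and 87.96). obst-B, a chitin-binding protein gene, had 129.9 in the pooled list, 82.44 in replicate 1 and none in replicate 2. The chitin synthase kkv had its nearest pooled summit 2328 bp away.

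Of 14 matched genes for tanning and pigmentation, 2 (14.3%) had a pooled summit within 1000 bp, beside 25.2% of all genes. They were Pu, which makes the cofactor of tyrosine hydroxylation, with 131.4 (98.99 and 59.97 in the replicates) and Ddc, the dopa decarboxylase gene, with 84.78 (46.46 and 47.06). Of 18 regulators of cuticle genes, 15 (83.3%) had one, beside the same 25.2%. Replicate 1 gave 13 (72.2%, beside 20.4%) and replicate 2 gave 10 (55.6%, beside 18.1%). The highest were the ecdysone-response genes Eip75B with 283.5 (179.4 and 101.8) and Eip74EF with 225.7 (122.9 and 91.78), the nuclear receptor gene ftz-f1 with 171.9 (103.8 and 60.31) and the ecdysone receptor gene EcR with 139.7 (85.49 and 80.81). Gene length ran in the same order as these shares, with medians of 32240 bp for the regulators, 9949 bp for chitin synthesis and assembly and 3890 bp for tanning. The part of gene length in these counts was not tested.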

How the data were processed

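ChIP-seq peaks were analysed for 2 biological replicates of 1 group, as the labels number them. The authors deposited 8 peak lists on dm6, 4 thresholded and 4 ranked by the irreproducible discovery rate, per the file names and deposited readme texts. For each kind there is 1 list per replicate and 2 from both replicates. Aligner, caller and software versions remain not given in the sources used here. Each deposited peak carries a score of at most 1000, at least 830 in the thresholded lists, a signal whose scale no source used here states, and a summit offset. The authors' signal was used to rank and describe peaks within a list and was not compared between lists. Files hold no read counts, so depth is unknown and no counting interval is given.

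Genes came from Ensembl release 115 and sequence from NCBI's Release 6 assembly, whose coordinates match dm6 (0 peaks lay beyond a chromosome end). Summits within 1000 and 5000 bp of any annotated TSS of a gene were counted on X, 2L, 2R, 3L, 3R and 4. A promoter summit is within 500 bp of a TSS of any gene. Support by a replicate means an overlap of at least 1 bp with its thresholded peak. Clusters join members at most 20 kb apart and hold 3 or more. Words were counted on both strands. Python 3.11.15, numpy 2.4.6, pandas 2.3.3 and matplotlib 3.10.9 were used, and the counting steps were tested on simulated data. No test was run and no p-value is given, since there is 1 group.

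The members, lists and measures were chosen with earlier results of these data known. Named genes are the members with a thresholded summit within 1000 bp in any list, those with a pooled summit within 5000 bp by signal, the highest and lowest of each cluster in the ranked list, and up to 4 of each other cuticle list by signal, and some others named to close a count were chosen after their values were seen. The symbols AANAT1 and ebony were not matched to a gene (ebony is listed as e). Identity between neighbouring proteins was not computed.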

Additional observations from a re-analysis of the deposited data

How the results depend on the processing

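No paired analysis was possible because there is 1 group and no test. Of 85 values under alternatives, 46 stayed within 1.5 times the main count. The replicates' own lists gave 4 to 10 members within 1000 bp (11 in the pooled list), 20 to 29 within 5000 bp (32), 0 to 2 with the nearest summit within 500 bp (2), 4 to 8 beyond that and up to 1000 bp (9), 4 to 6 clusters with a summit within 1000 bp (7), 8 to 10 within 5000 bp (10), and 11 to 18 peaks inside clusters (20). In each case the lower value is replicate 2. In the same order, the strongest 50% of the pooled list gave 4, 13, 0, 4, 4, 6 and 7, and its strongest 20% 1, 4, 0, 1, 1, 2 and 3. Pooled peaks that overlap both replicates gave 4, 16, 0, 4 and 4 for the first 5 counts and 8 peaks inside clusters, whether 1 bp or 50% was required. Members within 500 bp were 4 in the conservative list and 6 when any base of a peak counted. A window of 500 bp gave 2 members and one of 2000 bp gave 19, and nearest-gene assignment gave 17 within 5000 bp. Background shares fell too: in the strongest 50% of peaks 15.0% of all genes had a summit within 1000 bp, in the strongest 20% 7.11%, and among peaks of both replicates 14.8%. The bands of distance were added after the data were seen, as were the gaps of 10 kb and 50 kb and the cytological names for the count of peaks inside clusters, which each gave 20. The depth of both replicates is unknown, so the lower counts of replicate 2 cannot be set against its depth.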
